A study of Mus musculus with 12 samples.

Results

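Txnip, Arrdc4 and 7 further genes listed with the Mondo glucose sensors were followed in BV2 cells, an immortalised mouse microglial line. Whether the Mondo proteins control the listed genes in these cells was not tested. The 9 genes were taken by symbol from the table of counts per gene, which lists 55487 gene identifiers, and all 9 were among the 19182 genes with enough reads to be tested. They include the sensor gene Mlxip, the gene of its partner, Mlx, and the arrestin genes Txnip and Arrdc4. The others are the transcription factor genes Klf10, Klf11 and Bhlhe40, and the enzyme genes G6pc3 and Tkfc. The study measured ribosome-depleted RNA in 12 libraries, 3 in each of 4 groups. These were cells in high glucose medium with CD200Fc (HG+CD200Fc), in high glucose medium (HG), in normal glucose medium with CD200Fc (NG+CD200Fc) and in normal glucose medium (NG). CD200Fc, used at 50 ng/mL, is a fusion of CD200, the ligand of an inhibitory receptor on myeloid cells, with an antibody Fc part. All groups are the same line, with no Fc protein alone and no osmotic control among them, so the glucose change cannot be told apart from a change in osmolarity, nor CD200 from its Fc part. How much glucose the media held and for how long the cells were treated is not given in the sources used here.

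MondoA, the product of Mlxip, and its relative ChREBP, the product of Mlxipl, are transcription factors that become active when glucose 6-phosphate rises in the cell. Each acts as a dimer with Mlx on carbohydrate response elements, which are paired E-box-like sites in the promoters of their targets. Txnip is the best known target of MondoA. Its protein, like that of Arrdc4, is an alpha-arrestin that lowers glucose uptake by bringing glucose transporters in from the cell surface, and Txnip also binds thioredoxin.

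Each library held between 2.15e+07 and 3.19e+07 counted reads, and levels are given as counts per 1000000 reads (CPM) after scaling for library composition. All 16 microglia and macrophage markers were at 1 CPM or more in each group, and their summed level was 5650 to 5930 CPM in HG+CD200Fc, 5830 to 6450 CPM in HG, 5920 to 5960 CPM in NG+CD200Fc and 6080 to 6320 CPM in NG. Within this sum single markers moved with the groups. In HG against NG 5 of the 16 passed the edgeR test (adjusted p under 0.05) as higher and 4 as lower, where 11.7% and 12.9% of all genes did, and in HG+CD200Fc against HG 2 passed as higher and 6 as lower, where 9.46% and 8.3% did. The surface receptor gene Adgre1 (F4/80) had 396 ± 18.5 CPM in HG+CD200Fc, 729 ± 33.8 in HG, 399 ± 38.3 in NG+CD200Fc and 418 ± 3.49 in NG (SD, n = 3 each), a log2 difference of 0.80 in HG against NG and of -0.88 in HG+CD200Fc against HG. Those of Itgam were 0.51 and -0.56 and those of Aif1 0.44 and -0.70 in the same comparisons, while Cx3cr1, at 1.31 to 3.77 CPM, had -1.36 and 1.51. These 4 genes were chosen after their values were seen. The protocol text of the labels describes dissected mouse retinas and a sort of viable GFP-positive cells although the source is given as BV2, so markers of other cells of the eye, which such a sort would leave out unless they carried GFP, were counted as well. Of 16 markers of retinal neurons 4 averaged 1 CPM or more in HG and 3 in each other group. Their sum was 42 to 47.9 CPM in HG+CD200Fc, 33.6 to 38.8 CPM in HG, 33.1 to 41.7 CPM in NG+CD200Fc and 37.4 to 44.6 CPM in NG, most of it Pde6b (35.9, 28.2, 32 and 34 CPM in that order), and Crx and Grm6 had no read in any library. The markers of endothelium and mural cells, 4 of 9 at 1 CPM or more in each group, summed to 14.3 to 16.8 CPM in HG+CD200Fc, 16.6 to 18.7 CPM in HG, 14.2 to 15.8 CPM in NG+CD200Fc and 12.1 to 15.8 CPM in NG. The 8 markers of retinal glia summed to 1920 to 2100 CPM in HG+CD200Fc, 2150 to 2310 CPM in HG, 2270 to 2380 CPM in NG+CD200Fc and 2260 to 2360 CPM in NG, nearly all from the broadly expressed genes Vim (1880 to 2160 CPM as group means) and Glul (142 to 156 CPM). Of the others Apoe was at 6.29 to 8.31 CPM, Rlbp1 and Gfap lay between 0.567 and 1.61 CPM, and Slc1a3, Aqp4 and Sox9 did not exceed 0.205 CPM in any group. The 5 markers of pigment epithelium summed to 136 to 154 CPM over all libraries, of which Mitf, which macrophages also express, gave 129 to 137 CPM, and Ttr had no read. The part of these markers in the results was not tested. The share of ribosomal RNA reads also moved with the groups, at 0.0996% to 0.122% in HG+CD200Fc, 0.0728%, 0.0812% and 1.53% in HG, 0.0586% to 0.0622% in NG+CD200Fc and 0.0554% to 0.0571% in NG, so that both HG groups lay above both NG groups without overlap, and its part in the results was not tested. HG replicate 2, at 1.53%, stood apart from every other library, and without it the HG against NG difference was 0.86 for Txnip and 1.12 for Arrdc4 on the log2 scale. The labels name no separate cultures or passages behind the replicates, so the p-values speak of the spread from library to library, which may be technical.

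The promoters of Txnip and Arrdc4, the members with the largest responses, and of G6pc3, which carries more E-boxes but passed no test, are shown from 250 bases before to 50 bases after the gene start in the RefSeq annotation of GRCm38.p6. Sequences run 5′ to 3′ on the strand of the gene. Capitals in Txnip mark a pair of E-box-like sites, and in Arrdc4 and G6pc3 the E-box CACGTG.

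Txnip, chr3:96557707-96558006, plus strand: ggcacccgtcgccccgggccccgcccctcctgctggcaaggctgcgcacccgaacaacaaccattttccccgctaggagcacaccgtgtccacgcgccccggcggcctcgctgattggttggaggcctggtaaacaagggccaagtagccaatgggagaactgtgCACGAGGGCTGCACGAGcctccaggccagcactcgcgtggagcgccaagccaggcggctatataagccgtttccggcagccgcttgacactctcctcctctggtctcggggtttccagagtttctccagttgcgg
Arrdc4, chr7:68749189-68749488, minus strand: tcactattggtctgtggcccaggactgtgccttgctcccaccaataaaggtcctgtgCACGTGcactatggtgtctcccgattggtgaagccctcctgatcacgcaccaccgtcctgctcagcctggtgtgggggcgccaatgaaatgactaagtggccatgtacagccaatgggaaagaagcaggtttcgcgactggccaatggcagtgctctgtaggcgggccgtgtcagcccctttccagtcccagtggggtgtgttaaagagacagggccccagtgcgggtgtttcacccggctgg
G6pc3, chr11:102189449-102189748, plus strand: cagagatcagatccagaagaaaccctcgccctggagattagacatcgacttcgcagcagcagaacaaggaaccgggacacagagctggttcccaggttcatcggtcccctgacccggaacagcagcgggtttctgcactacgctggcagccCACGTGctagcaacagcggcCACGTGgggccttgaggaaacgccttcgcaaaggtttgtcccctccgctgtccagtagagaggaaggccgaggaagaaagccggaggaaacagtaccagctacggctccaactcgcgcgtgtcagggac

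The marked stretch of Txnip, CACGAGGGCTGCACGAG, lies 85 to 69 bases before the start and holds 2 CACGAG sites that are 5 bases apart. Pairs of sites in this arrangement were searched on both strands with the letters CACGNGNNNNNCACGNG, CACGNGNNNNNCNCGTG, CNCGTGNNNNNCACGNG and CNCGTGNNNNNCNCGTG, in which N is any base, and 27 of 32544 distinct promoter sequences held at least 1 (0.083%). The exact pair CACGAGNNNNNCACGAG, on either strand, was in 1 of the 32544 promoters (0.00307%), that of Txnip, but it was looked for after the Txnip sequence had been read. The E-box CACGTG, which can also fall inside such a pair, was in 7.17% of promoters. It occurred 2 times in G6pc3, at 99 to 94 and at 79 to 74 bases before the start. It occurred 1 time in Arrdc4 (193 to 188 bases before the start), in Mlx (40 to 35) and in Klf11 (214 to 209). These letters are not in the windows of Txnip, Mlxip and Tkfc. Starts here are those of RefSeq, while the gene coordinates given below are from GENCODE M21, where some starts differ, that of G6pc3 among them. By those coordinates (10587791 to 10605654) the Tkfc window, 10604209 to 10604508 on chromosome 19, lies within the gene. The letters CCAAT or ATTGG, found in 37.4% of promoters, flanked the pair in Txnip on its upstream side at 137 to 133 and at 102 to 98 bases before the start, and occurred 6 times in Arrdc4. A promoter sequence was at hand for 7 of the 9 genes, all but Klf10 and Bhlhe40, and a match of letters describes the sequence only.

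In HG against NG, 6 of the 9 genes passed the test as higher (adjusted p under 0.05, edgeR quasi-likelihood test with Benjamini-Hochberg adjustment), 0 as lower and 3 did not pass, where 11.7% of all tested genes passed as higher, 12.9% as lower and 24.6% in either direction. The 6 were Txnip, Arrdc4, Klf10, Klf11, Tkfc and Bhlhe40. Because the 9 genes were chosen with earlier results of these data known, counts beside the shares of all genes are a description only. Under the alternatives the members passing numbered 4 to 8, and the share of all genes passing moved as well. The count was 4 without HG replicate 2 or 3, where 17.8% and 18.8% of all genes passed in either direction. It was also 4 without NG replicate 1 or 3 (16.7% and 18.3%), and 8 with voom (30.3%) and with the replicate block (27.4%). In 7 of the 9 every HG library lay above every NG library, which held for 19.9% of all genes. With CD200Fc in both media, 3 passed as higher in HG+CD200Fc and 0 as lower, against 4.65% and 3.65% of all genes and 8.3% in either direction. That share rests on single libraries, since it was 1.39% (277 genes) without HG+CD200Fc replicate 2, where 1 member passed, 1.73% (344) without NG+CD200Fc replicate 3, 3.25% (646) without HG+CD200Fc replicate 3 and 3.34% (665) without NG+CD200Fc replicate 1. The 3 members were Txnip, Arrdc4 and Mlxip, and the other 6 lay between -0.18 for Mlx and 0.14 for Klf11 on the log2 scale. Of HG+CD200Fc against HG, 4 members passed as lower and 1 as higher, against 8.3% lower, 9.46% higher and 17.8% in either direction among all genes. Without HG replicate 1, 3 members passed, where 14% of all genes did. In NG+CD200Fc against NG none of the 9 passed, and 0 of the 19182 genes did (0%), with 1147 genes (5.98%) at an unadjusted p under 0.05. Of the 20 alternatives, 16 also called 0 genes in that comparison, DESeq2 and limma voom among them, while 21 were called with no filter on low counts, 9 with the compared groups alone, 8 without HG replicate 1 and 2 with the replicate block. The log2 differences of the 9 genes ran from -0.13 for Mlx to 0.22 for Klf11. The test of whether the CD200Fc effect differed between HG and NG, an interaction term, passed for 3 of the 9 genes, all more negative in HG, where 3.58% of all genes passed in that direction and 7.2% in either. HG+CD200Fc against NG, added after the data had been seen, gave 4 members higher (Txnip, Arrdc4, Mlxip and Klf11) and 1 lower (Mlx), where 9.56% and 10.8% of all genes passed in these directions and 20.3% in either, and 3 members passed without HG+CD200Fc replicate 2 or NG replicate 3. The share in either direction was 11.8% without HG+CD200Fc replicate 2, 13.8% without NG replicate 3 and 11.1% without NG replicate 1. HG+CD200Fc against HG and HG against NG share the 3 HG libraries, so their values are set side by side only.

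**Figure D1:**
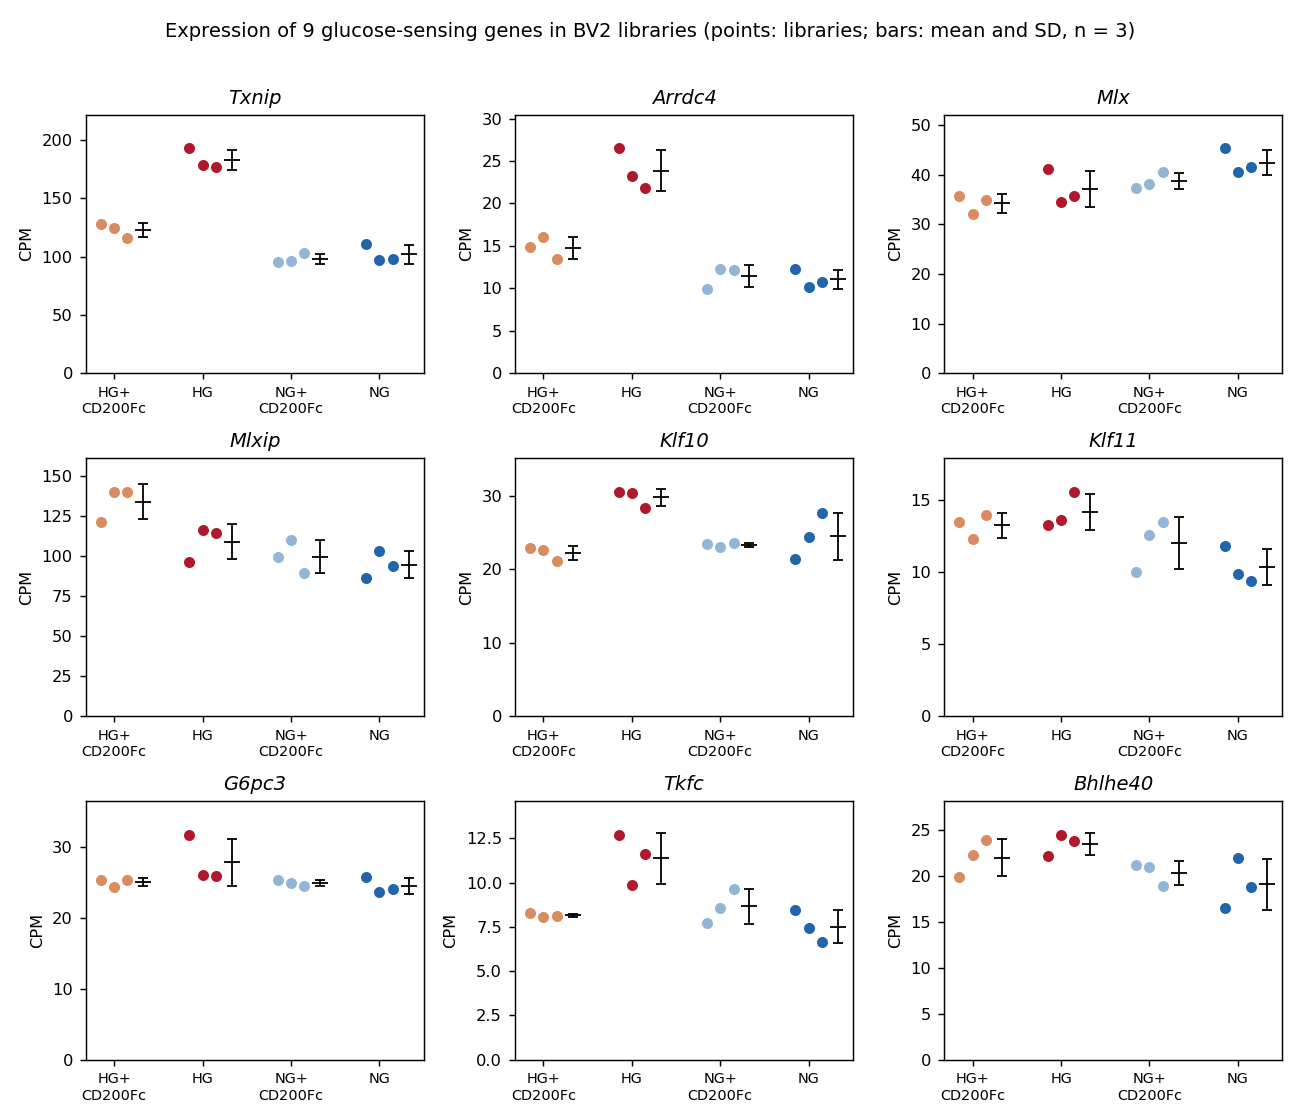
CPM of each of the 9 genes (vertical axis, from 0, own scale per panel) in the HG+CD200Fc, HG, NG+CD200Fc and NG groups, with a point per library and bars for the group mean and SD (n = 3). For Txnip the HG libraries sit at 177 to 193 CPM, above HG+CD200Fc at 116 to 128 CPM and both NG groups.

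The sensor gene Mlxip, on chromosome 5 from 123394798 to 123457932 (GRCm38, plus strand), was highest in HG+CD200Fc. Its level was 121, 140 and 140 CPM in HG+CD200Fc, 96.1, 116 and 114 CPM in HG, 99.4, 110 and 89.2 CPM in NG+CD200Fc and 86.5, 103 and 93.9 CPM in NG. The HG+CD200Fc libraries lay above those of every other group, while HG overlapped NG+CD200Fc and NG. HG+CD200Fc was higher than HG by 0.30 ± 0.087 on the log2 scale (SE, 3 libraries a group; adjusted p = 0.0192), and the call was lost with upper quartile scaling (0.31), without HG+CD200Fc replicate 2 (0.27), HG+CD200Fc replicate 3 (0.27) or HG replicate 1 (0.23). HG+CD200Fc was also higher than NG+CD200Fc, by 0.43 ± 0.087 (adjusted p = 0.00642), a call lost without HG+CD200Fc replicate 2 (0.39). HG against NG was 0.20 ± 0.087 (adjusted p = 0.110, range over alternatives 0.0168 to 0.415) and passed without HG replicate 1 (0.26) or NG replicate 2 (0.26), with voom (0.22) and with no filter on low counts (0.19). The effect of CD200Fc differed between HG and NG by 0.23 ± 0.12 (adjusted p = 0.324), which did not pass. Against NG, Mlxip in HG+CD200Fc was higher by 0.50 ± 0.087 (adjusted p = 5.62e-04). Mlxip overlaps 4 annotated genes, of which Gm42907, Gm43813 and Gm42908 lie on its strand and share 0 exon bases with it. In HG+CD200Fc against NG, Gm42907 (0.96 ± 0.26, adjusted p = 0.0102) and Gm43813 (0.90 ± 0.26, adjusted p = 0.0198) were also higher. Gm42908 did not pass there (adjusted p = 0.0890), and none of them passed against HG. Their part in the Mlxip level was not tested.

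Mlx, the partner of both Mondo proteins, on chromosome 11 from 101087277 to 101092207 (plus strand), had its lowest mean in HG+CD200Fc. It stood at 35.7, 32.1 and 34.9 CPM in HG+CD200Fc, 41.2, 34.4 and 35.6 CPM in HG, 37.3, 38.2 and 40.5 CPM in NG+CD200Fc and 45.3, 40.5 and 41.5 CPM in NG. Every HG+CD200Fc library lay below every library of NG+CD200Fc and of NG, whereas HG overlapped both NG groups and HG+CD200Fc. HG+CD200Fc was lower than NG by 0.31 on the log2 scale (-0.31 ± 0.079, adjusted p = 0.00610). Neither HG+CD200Fc against HG (-0.11 ± 0.079, adjusted p = 0.373) nor HG+CD200Fc against NG+CD200Fc (-0.18 ± 0.079, adjusted p = 0.171) passed. HG against NG was -0.19 ± 0.078 (adjusted p = 0.0696, range over alternatives 0.00872 to 0.262), and it passed without HG replicate 1 (-0.30), NG+CD200Fc replicate 2 (-0.21) or NG+CD200Fc replicate 3 (-0.21) and with voom (-0.21). Mlx shares 385 exon bases with Psmc3ip on the other strand, which was lower in HG than in NG (-0.48 ± 0.10, adjusted p = 7.38e-04). In HG+CD200Fc against NG, where Mlx passed, Psmc3ip was lower as well (-0.46 ± 0.10, adjusted p = 0.00193). Whether counting used the strand is not given in the sources used here, so reads of the shared bases cannot be told apart.

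Per exon length (FPKM, the CPM per kilobase of exon), Mlxip stood at 16.1 ± 1.37 FPKM in HG+CD200Fc, 13.0 ± 1.29 FPKM in HG, 11.9 ± 1.23 FPKM in NG+CD200Fc and 11.4 ± 1.01 FPKM in NG (SD, n = 3 each). Mlx stood at 17.1 ± 0.937 FPKM in HG+CD200Fc, 18.5 ± 1.80 FPKM in HG, 19.4 ± 0.829 FPKM in NG+CD200Fc and 21.2 ± 1.27 FPKM in NG. The ratio of the Mlxip level to the Mlx level, both per length, was 0.942 ± 0.121 in HG+CD200Fc, 0.711 ± 0.132 in HG, 0.619 ± 0.0824 in NG+CD200Fc and 0.538 ± 0.0773 in NG. Its libraries ran 0.811, 1.05 and 0.966 in HG+CD200Fc, 0.56, 0.806 and 0.766 in HG, 0.639, 0.689 and 0.528 in NG+CD200Fc and 0.458, 0.612 and 0.543 in NG. HG+CD200Fc lay above HG in every library, and HG overlapped both NG groups. Mlxipl, the gene of the other sensor, had 53 reads in the 12 libraries together and was not tested.

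Txnip was the member with the highest level per length and with the most significant response. The gene lies on chromosome 3 from 96557957 to 96561883 (plus strand), and its level was 128, 125 and 116 CPM in HG+CD200Fc, 193, 179 and 177 CPM in HG, 95.7, 95.9 and 103 CPM in NG+CD200Fc and 111, 96.8 and 97.9 CPM in NG. All HG libraries lay above all others, the HG+CD200Fc libraries came next without overlap, and the NG groups overlapped each other. HG was 1.79-fold higher than NG (log2 0.84 ± 0.062, adjusted p = 1.10e-10), and HG+CD200Fc was lower than HG by a log2 difference of -0.57 ± 0.061 (adjusted p = 1.23e-07). In RNA of whole cultures, more RNA per cell and more cells that express a gene cannot be told apart.

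In the presence of CD200Fc the glucose difference of Txnip was smaller but passed the test, at 0.33 ± 0.062 for HG+CD200Fc against NG+CD200Fc (adjusted p = 0.00269). Between group means it was 25 CPM with CD200Fc and 81 CPM without, so that the difference with CD200Fc was 30.8% of that without. The interaction was -0.52 ± 0.087 (adjusted p = 2.90e-04). In normal glucose CD200Fc gave -0.06 ± 0.062 (95% interval -0.18 to 0.07, adjusted p = 0.901), and the sign turned without NG replicate 1 (0.01). HG+CD200Fc was also higher than NG (0.27 ± 0.062, adjusted p = 0.00262). The Txnip calls held in every alternative run. Gm15441 lies antisense to Txnip with 606 shared exon bases and had 92 reads in all libraries together.

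Arrdc4, the closest relative of Txnip among the members, lies on chromosome 7 from 68736995 to 68749241 (minus strand) and overlaps no other annotated gene. It had 14.9, 16.0 and 13.4 CPM in HG+CD200Fc, 26.5, 23.2 and 21.8 CPM in HG, 9.91, 12.3 and 12.1 CPM in NG+CD200Fc and 12.3, 10.1 and 10.8 CPM in NG. The order was that of Txnip, with HG above HG+CD200Fc, both above the NG groups, and the NG groups overlapping. HG was 2.15-fold higher than NG (log2 1.11 ± 0.11, adjusted p = 5.01e-08), the largest fold change of the 9 genes. HG+CD200Fc was lower than HG (-0.69 ± 0.11, adjusted p = 4.76e-05), and the interaction was -0.74 ± 0.16 (adjusted p = 0.00417). These 3 calls held in every alternative run.

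With CD200Fc in both media, Arrdc4 was higher in HG+CD200Fc by 0.37 ± 0.12 (adjusted p = 0.0484), a call at the edge of the threshold. It was lost in 10 of 20 alternatives, with adjusted p from 0.0230 to 0.242 over all of them and a log2 difference of 0.26 to 0.43. The losses came when only the compared groups were fitted (0.36), when any single HG+CD200Fc library was left out (0.36 without replicate 1, 0.31 without replicate 2, 0.43 without replicate 3) or any single NG library (0.36 each), without HG replicate 3 (0.36), and without NG+CD200Fc replicate 1 (0.26) or replicate 3 (0.41). In normal glucose CD200Fc gave 0.05 ± 0.12 (adjusted p = 0.961; range over alternatives 0.932 to 1.00), and the sign turned without NG+CD200Fc replicate 3 (-0.01) or NG replicate 2 (-0.01), and it was 0 to 2 decimals without NG+CD200Fc replicate 2. HG+CD200Fc against NG gave 0.41 ± 0.12 (adjusted p = 0.0126), lost without HG+CD200Fc replicate 2 (0.35), NG replicate 2 (0.35) or NG replicate 3 (0.39).

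Arrdc4 varied together with Txnip across the libraries. Arrdc4 reads per 100 Txnip reads were 11.7, 12.8 and 11.5 in HG+CD200Fc, 13.7, 13.0 and 12.3 in HG, 10.4, 12.8 and 11.8 in NG+CD200Fc and 11, 10.5 and 11.1 in NG. HG lay above NG in every library, and both CD200Fc groups overlapped HG. Per exon length Txnip was at 39.4 ± 1.89 FPKM in HG+CD200Fc, 58.6 ± 2.69 in HG, 31.4 ± 1.27 in NG+CD200Fc and 32.7 ± 2.59 in NG (SD, n = 3 each). Arrdc4 was at 3.65 ± 0.324 FPKM in HG+CD200Fc, 5.90 ± 0.596 in HG, 2.83 ± 0.327 in NG+CD200Fc and 2.75 ± 0.272 in NG.

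**Figure D2:**
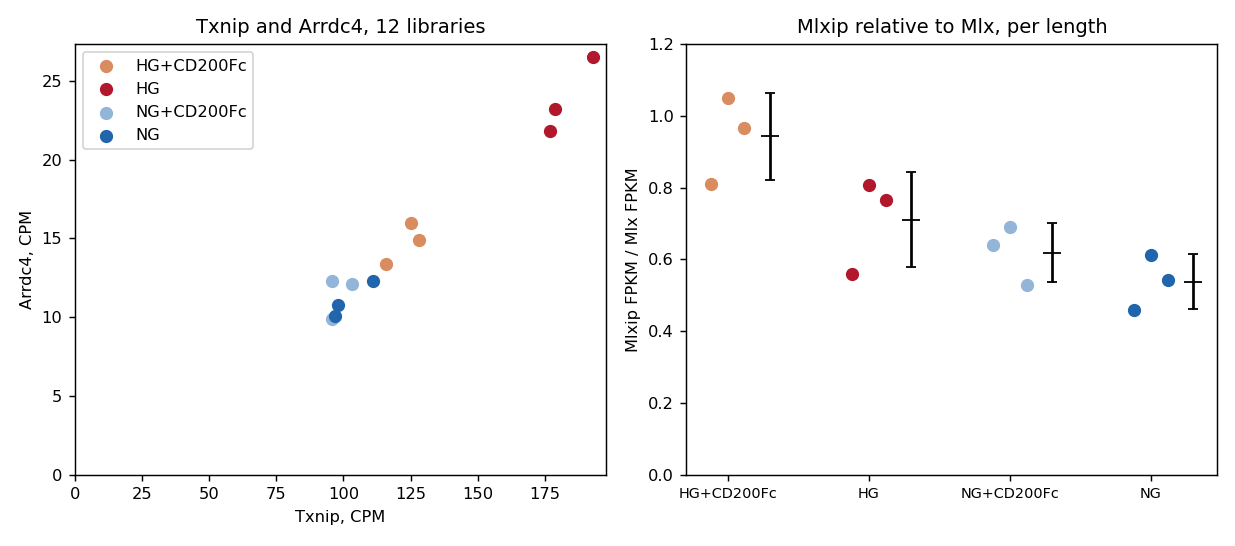
Left, Arrdc4 CPM (vertical axis) against Txnip CPM (horizontal axis), with a point per library coloured by group: the 3 HG libraries lie apart at the upper right and the HG+CD200Fc libraries lie between them and the NG groups. Right, the ratio of Mlxip FPKM to Mlx FPKM in each library with the group mean and SD (n = 3), highest in HG+CD200Fc at 0.942 ± 0.121.

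Klf10, a Kruppel-like repressor induced by TGF-beta, lies on chromosome 15 from 38291463 to 38300706 (minus strand), and its 3 highest libraries were those of HG. Its level was 22.9, 22.7 and 21.2 CPM in HG+CD200Fc, 30.6, 30.4 and 28.4 CPM in HG, 23.4, 23.0 and 23.6 CPM in NG+CD200Fc and 21.4, 24.4 and 27.7 CPM in NG. The HG libraries lay above all others, with NG replicate 3 the nearest. HG+CD200Fc was lower than HG (-0.42 ± 0.090, adjusted p = 0.00124), in every alternative run. HG was higher than NG by 0.28 ± 0.089 (adjusted p = 0.0211), and this call was lost without HG replicate 1 (0.24), HG replicate 2 (0.26), NG replicate 1 (0.18) or NG replicate 2 (0.28). The interaction, -0.35 ± 0.13, did not pass (adjusted p = 0.102, range over alternatives 0.0471 to 0.322), except without NG replicate 3 (-0.44).

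Klf11, a close relative of Klf10, on chromosome 12 from 24651274 to 24662789 (plus strand), passed in HG against NG and in no comparison with and without CD200Fc in the same medium. It had 13.5, 12.3 and 14.0 CPM in HG+CD200Fc, 13.3, 13.6 and 15.6 CPM in HG, 9.99, 12.6 and 13.5 CPM in NG+CD200Fc and 11.8, 9.90 and 9.42 CPM in NG. Only HG and HG+CD200Fc were free of overlap with NG. HG was higher than NG by 0.45 ± 0.12 (adjusted p = 0.00864), a call lost without HG replicate 3 (0.36) or NG replicate 3 (0.37). HG+CD200Fc against HG was -0.09 ± 0.12 (95% interval -0.35 to 0.16, adjusted p = 0.691). HG+CD200Fc against NG was 0.36 ± 0.13 (adjusted p = 0.0448, range over alternatives 0.0229 to 0.208), a call lost in 9 of 20 alternatives, among them with any single HG+CD200Fc library left out (0.34, 0.41 and 0.31 without replicates 1, 2 and 3) and without HG replicate 1 (0.34) or 3 (0.34), NG+CD200Fc replicate 2 (0.34) and NG replicate 2 (0.32) or 3 (0.28).

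Bhlhe40, a repressor of the circadian clock also known as Dec1, lies on chromosome 6 from 108660629 to 108666925 (plus strand). Its level was 19.9, 22.3 and 23.9 CPM in HG+CD200Fc, 22.2, 24.5 and 23.8 CPM in HG, 21.2, 21 and 18.9 CPM in NG+CD200Fc and 16.5, 22.0 and 18.8 CPM in NG. HG lay just above NG, and HG+CD200Fc overlapped every other group. HG was higher than NG by 0.30 ± 0.10 (adjusted p = 0.0335), and the call was lost without HG replicate 2 (0.26), HG replicate 3 (0.27), NG+CD200Fc replicate 1 (0.28), NG replicate 1 (0.19) or NG replicate 3 (0.27). HG+CD200Fc against HG was -0.09 ± 0.10 (adjusted p = 0.609).

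Of the enzyme genes, Tkfc was higher in HG than in NG and lower in HG+CD200Fc than in HG, and G6pc3 passed in no comparison. Tkfc, which encodes triokinase of fructose metabolism, lies on chromosome 19 from 10587791 to 10605654 (minus strand) and had 8.26, 8.07 and 8.11 CPM in HG+CD200Fc, 12.7, 9.85 and 11.6 CPM in HG, 7.73, 8.59 and 9.66 CPM in NG+CD200Fc and 8.48, 7.43 and 6.66 CPM in NG. The HG libraries lay above all others, which overlapped. HG was 1.52-fold higher than NG (log2 0.60 ± 0.13, adjusted p = 0.00154), in every alternative run. HG+CD200Fc was lower than HG (-0.48 ± 0.13, adjusted p = 0.0113), a call lost without HG replicate 1 (-0.39). The interaction was -0.69 ± 0.19 (adjusted p = 0.0241, range over alternatives 0.0123 to 0.0943), and it was lost without HG+CD200Fc replicate 2 (-0.68) or 3 (-0.68), HG replicate 1 (-0.59) or 3 (-0.67), NG+CD200Fc replicate 3 (-0.58), or NG replicate 2 (-0.68) or 3 (-0.60). Tkfc shares 596 exon bases with Cyb561a3 and 328 with Ddb1, both on the other strand. Cyb561a3 was higher in HG than in NG (0.53 ± 0.13, adjusted p = 0.00290) and lower in HG+CD200Fc than in HG (-0.56 ± 0.13, adjusted p = 0.00266). Ddb1, at 551 to 575 CPM as group means, lay far above Tkfc and passed in neither comparison (-0.06 ± 0.049 and 0.03 ± 0.050). The part of Cyb561a3 and Ddb1 in the Tkfc counts was not tested.

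G6pc3, the glucose-6-phosphatase subunit found in most tissues, with 2 E-boxes in the promoter shown above, lies on chromosome 11 from 102189620 to 102194081 (plus strand). It had 25.4, 24.4 and 25.4 CPM in HG+CD200Fc, 31.7, 26 and 25.9 CPM in HG, 25.3, 24.9 and 24.5 CPM in NG+CD200Fc and 25.8, 23.7 and 24 CPM in NG. HG replicate 1 stood above the other 11 libraries, which were close together. HG against NG was 0.19 ± 0.087 (95% interval 0.01 to 0.37, adjusted p = 0.121), and 0.06 without HG replicate 1. HG+CD200Fc against HG was -0.16 ± 0.087 (adjusted p = 0.255).

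**Figure D3:**
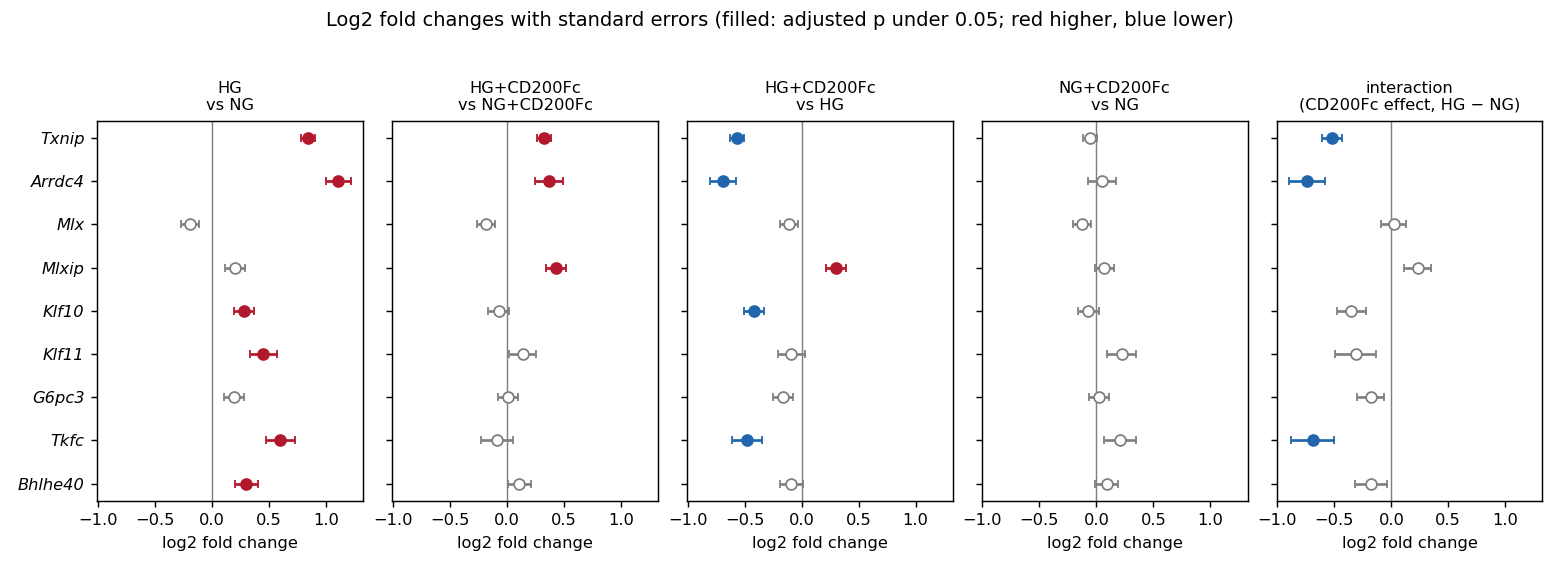
Log2 fold changes of the 9 genes (horizontal axis, log2 scale) with standard errors in 5 comparisons, filled where the adjusted p was under 0.05, red for higher and blue for lower. Txnip and Arrdc4 were filled in every panel but NG+CD200Fc against NG, in which no gene was filled.

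Among 9078 genes with a mean of at least 10 CPM, Arrdc4 had the profile most like that of Txnip, with a Pearson r of 0.983 over the 12 libraries on the log2(CPM + 1) scale and of 0.906 over the 9 libraries without HG. It was followed by Mmp9, a matrix metalloproteinase gene (0.974 over 12 libraries and 0.831 over 9), Kdm5b, a histone demethylase gene (0.973 and 0.811), Slc15a3, a peptide transporter gene (0.970 and 0.813), and Rassf4 (0.969 and 0.766). Kdm5b reached the minimum of 10 CPM only through HG, with 9.62 ± 0.619 CPM in HG+CD200Fc, 16 ± 0.192 in HG, 7.88 ± 0.585 in NG+CD200Fc and 8.07 ± 0.144 in NG, so it entered the ranking through the group in which it was high. Mmp9 had 26.6 ± 1.60 CPM in HG+CD200Fc, 59.7 ± 3.82 in HG, 19.8 ± 0.225 in NG+CD200Fc and 20.2 ± 1.10 in NG. The points share their libraries, depth and 4 groups, so these values describe likeness only. The other members ranked far lower, with r of 0.719 for G6pc3 (rank 883), 0.685 for Klf10 (1006), 0.668 for Klf11 (1071), 0.523 for Bhlhe40 (1575), 0.219 for Mlxip (2749) and -0.304 for Mlx (5200). Tkfc, below 10 CPM, was not ranked.

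Counts in the related lists stand against 11.7% of all tested genes higher and 12.9% lower in HG against NG, and 9.46% higher and 8.3% lower in HG+CD200Fc against HG. These lists too were chosen with earlier results of these data known, so the counts are a description only. The wider network around Mlx had 2 of 8 tested genes (25%) higher in HG than in NG and 0 lower, with a median log2 difference of 0, where all tested genes had 0.02. Both were Max-binding repressors that can also pair with Mlx. Mxd4 had 38.5 ± 5.11 CPM in HG+CD200Fc, 63.1 ± 1.75 in HG, 33.8 ± 0.969 in NG+CD200Fc and 31.1 ± 3.07 in NG. It was higher in HG than in NG by 1.02 ± 0.084 (adjusted p = 9.74e-10), and HG+CD200Fc against HG was -0.71 ± 0.083 (adjusted p = 5.30e-07). Mxd1 was higher in HG than in NG by 0.67 ± 0.15 (adjusted p = 0.00148), and HG+CD200Fc against HG was -0.62 ± 0.15 (adjusted p = 0.00382). In that comparison 1 gene of the 8 was higher, the Max-binding repressor Mnt (0.29), and 2 were lower, where the higher count was 0 without HG+CD200Fc replicate 2 or HG replicate 1 and 2 without HG+CD200Fc replicate 1, NG+CD200Fc replicate 2 or NG+CD200Fc replicate 3. Max, the common partner of the Myc family, was at 0.02 ± 0.058 and Myc at -0.02 ± 0.13 in HG against NG, neither passing. In HG+CD200Fc against HG, Myc was at 0.37 ± 0.13 (adjusted p = 0.0743) and passed in 8 of 20 alternatives, DESeq2 and voom among them. Myc was the second gene where the higher count was 2.

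In the list of alpha-arrestins and thioredoxin system genes, 2 of 15 tested genes (13.3%) were higher in HG than in NG and 3 (20%) lower (median -0.02), the share of higher genes being near that of all genes. The count of higher genes was 0 without HG replicate 1 or NG replicate 1 and 1 without NG replicate 2 or NG replicate 3. The higher genes were Arrdc1 (0.26), an alpha-arrestin gene, and Ddit4 (0.63), a stress-induced inhibitor of mTOR, which like the other genes outside the naming rule are named because they make up a count. The 3 lower genes were the thioredoxin reductase gene Txnrd1 (-0.39 ± 0.049, adjusted p = 1.21e-06), the mitochondrial thioredoxin gene Txn2 (-0.37 ± 0.063, adjusted p = 8.48e-05) and the cytosolic thioredoxin gene Txn1 (-0.30 ± 0.063, adjusted p = 7.53e-04). Txnrd1 had 399 ± 10.4 CPM in HG+CD200Fc, 303 ± 8.47 in HG, 389 ± 6.06 in NG+CD200Fc and 398 ± 11.4 in NG. The alpha-arrestin gene Arrdc3 was at 0.01 ± 0.20 in HG against NG (adjusted p = 0.977) and its sign turned with voom (-0.18) and in 6 of the fits that left out a library. In HG+CD200Fc against HG, 1 gene of the 15 was higher, Txnrd1, by 0.39 ± 0.049 (adjusted p = 1.31e-06), and 2 were without HG+CD200Fc replicate 1, HG replicate 1 or HG replicate 3. Lower there were Arrdc3 (-0.65, lost in 6 of 20 alternatives, adjusted p up to 0.128), the peroxiredoxin gene Prdx1 (-0.30) and the ubiquitin ligase gene Itch (-0.19), a count of 3 that was 0 without HG+CD200Fc replicate 2 and 1 without HG+CD200Fc replicate 3 or HG replicate 1.

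Of 12 tested genes of glucose uptake and glucose 6-phosphate, 4 (33.3%) were higher in HG than in NG and 0 lower (median 0.19), with 2 higher and 1 lower without HG replicate 1 and 2 higher without NG replicate 1. Slc2a6, a glucose transporter family gene, was higher by 0.71 ± 0.061 (adjusted p = 2.00e-09) and the hexokinase gene Hk1 by 0.38 ± 0.060 (adjusted p = 3.36e-05). Slc37a4, the glucose 6-phosphate transporter gene, was at 0.28 ± 0.088 (adjusted p = 0.0216), lost without HG replicate 1 (0.20) or NG replicate 1 (0.19). The fourth, the hexokinase gene Hk3, was at 0.17 ± 0.051 (adjusted p = 0.0183), lost without HG replicate 1 (0.13) or 3 (0.14), NG+CD200Fc replicate 1 (0.15) or NG replicate 1, 2 or 3 (0.15, 0.15 and 0.16). The main glucose transporter gene Slc2a1 was at 0.13 ± 0.059 (adjusted p = 0.113) and passed without HG replicate 2 (0.18) and with upper quartile scaling (0.16). The hexokinase gene Hk2 was at -0.05 ± 0.052 (adjusted p = 0.534). When CD200Fc was added to HG, 5 of the 12 (41.7%) were lower and 0 higher, and 3 were lower without HG replicate 1. They were Slc2a6 (-0.59 ± 0.061, adjusted p = 7.00e-08), Slc37a4 (-0.38), Slc2a1 (-0.23), Hk3 (-0.16) and Slc2a4 (-2.42). The calls of Slc2a6 and Slc37a4 held in every alternative run, and that of Slc2a1 was lost without HG replicate 1 (-0.17, adjusted p = 0.0754). Hk3 lost its call in 9 of 20 alternatives (adjusted p 0.00347 to 0.150), namely without HG+CD200Fc replicate 1 (-0.14) or 3 (-0.14), HG replicate 1 (-0.13) or 3 (-0.15), NG+CD200Fc replicate 1 (-0.15) or NG replicate 1 or 3 (-0.15 each), with DESeq2 size factors (-0.14) and with the compared groups alone (-0.16). Slc2a4, with 206 reads in the 12 libraries together, lost its call without HG+CD200Fc replicate 2 (-2.23, adjusted p = 0.0508) and with voom (-2.15, adjusted p = 0.0506).

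Textbook targets of ChREBP, from the liver literature, gave 3 higher and 3 lower of 16 tested genes in HG against NG (18.8% each, median -0.08), with 1 lower without HG replicate 2 or NG replicate 1. The desaturase genes Scd1 (0.76 ± 0.12, adjusted p = 1.32e-04) and Scd2 (0.39 ± 0.059, adjusted p = 1.59e-05) were higher, and the fatty acid synthase gene Fasn was lower (-0.21 ± 0.058, adjusted p = 0.00722). The others were Pnpla3 (1.36, 204 reads in all), which lost its call in 7 of 19 alternatives, and the lipogenic genes Elovl6 (-0.29) and Mid1ip1 (-0.21). G6pc, the liver glucose-6-phosphatase gene and a classical ChREBP target, had 27 reads in all 12 libraries and was not tested. CD200Fc in HG gave 6 of the 16 (37.5%) as higher and 3 (18.8%) as lower, where the higher count was 3 without HG+CD200Fc replicate 1 or HG replicate 2. Fasn was higher there by 0.57 ± 0.058 (adjusted p = 4.83e-08). The other higher genes were Me1 (0.42), Elovl6 (0.31), Mid1ip1 (0.20), Acaca (0.18) and Tkt (0.15). Scd1 (-0.62 ± 0.12, adjusted p = 0.00112) and Scd2 (-0.34 ± 0.059, adjusted p = 9.73e-05) were lower, in every alternative run, and so was Ppp1r3b (-0.44). Mid1ip1 lost its call in 6 of 20 alternatives, Ppp1r3b in 3 and Elovl6 in 2. In NG+CD200Fc against NG no gene of these 4 lists passed, nor did any of the 19182 tested genes, so this says nothing particular of the lists.

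**Figure D4:**
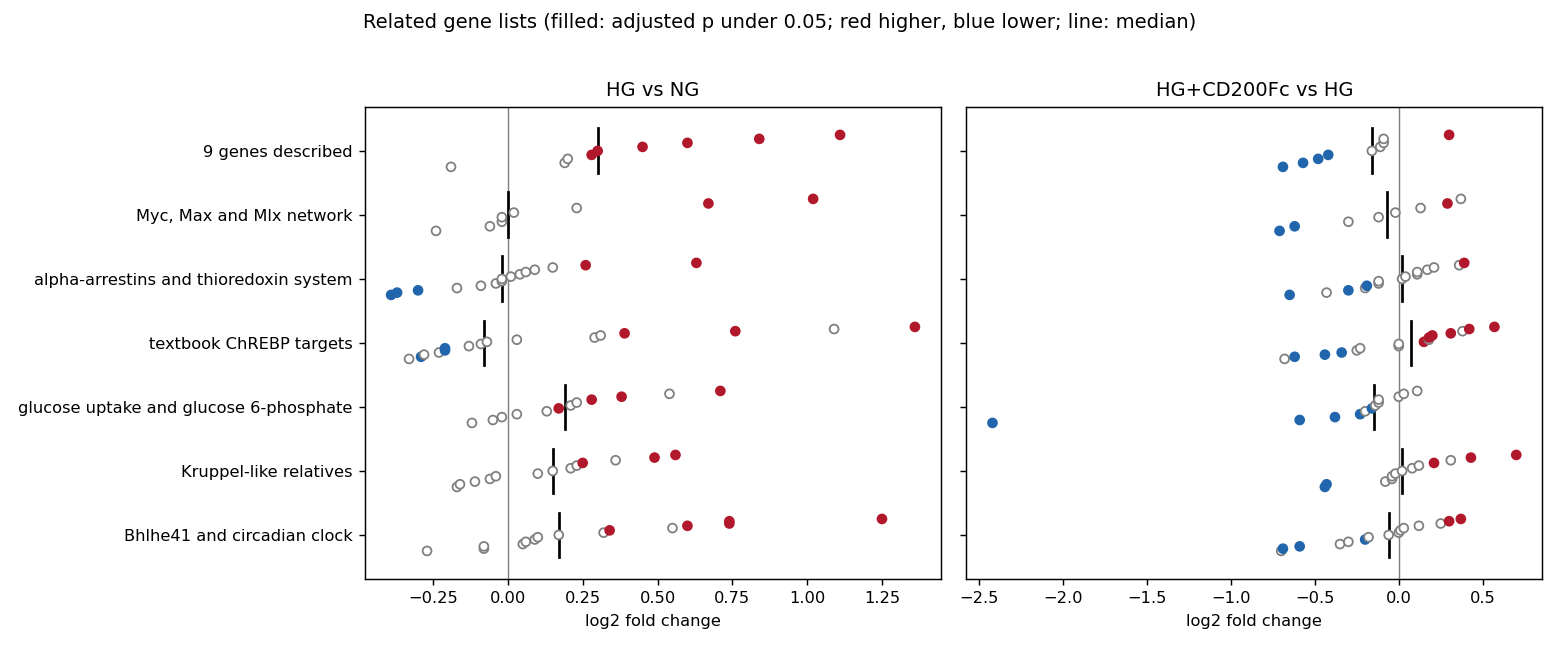
Log2 fold changes (horizontal axis, a different range in each panel) of the 9 genes and of the tested genes in 6 related lists, in HG against NG and in HG+CD200Fc against HG, with a point per gene, filled where the adjusted p was under 0.05, and a line at the list median. The point at -2.42 is Slc2a4, which had 206 reads in all libraries.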

How the data were processed

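RNA of BV2 cells was depleted of ribosomal RNA with RNase H, made into libraries with random hexamers and sequenced as paired reads, per the labels' protocols. The deposited table gives the authors' counts per gene, not normalized. Per the submitters' processing notes the build was GRCm38 and the tools were STAR, featureCounts of Subread and Salmon after bcl2fastq, with limma and edgeR. The annotation release is not given in the sources used here, nor is the strand setting. The authors' deposited comparison tables hold log2 fold changes and p-values with their adjusted values. In the authors' deposited table, Txnip in HG against NG has a log2 fold change of 0.85.

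Of 55774 lines of the table, 287 repeats of an identifier were dropped. Counts were fitted for all 4 groups together with edgeR 4.0.16 in R 4.3.3 (filterByExpr, TMM scaling, quasi-likelihood test, Benjamini-Hochberg adjustment over 19182 genes), with a common biological coefficient of variation of 0.0908. CPM are counts per 1000000 reads of the TMM-scaled library size, and FPKM are CPM per kilobase of exon in GENCODE M21, which matched 99.5% of identifiers. The fit was tested on simulated data. Alternatives used DESeq2 1.42.0, limma 3.58.1 voom, other scalings and filters, a replicate block, the compared groups alone, and each library left out in turn.

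The 9 genes and the related lists were chosen with earlier results of these data known. From each list, the genes named were up to 3 with the smallest p past the threshold in HG against NG and a few fixed by name. From the ranking by likeness to Txnip, the 5 genes with the highest r were named, leaving out predicted genes and pseudogenes. The comparison of HG+CD200Fc with NG and the alternatives for the related lists were added after seeing the data.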

Additional observations from a re-analysis of the deposited data

Results flagged for a closer look

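For 3 of the 9 genes the effect of CD200Fc differed between the glucose media by the interaction test of edgeR, all more negative in HG. Of all tested genes 3.58% passed in that direction and 7.2% in either. For Txnip the log2 effect of CD200Fc was -0.57 in HG and -0.06 in NG, a difference of -0.52 ± 0.087 (SE, 3 libraries a group, adjusted p = 2.90e-04). For Arrdc4 it was -0.69 in HG and 0.05 in NG, a difference of -0.74 ± 0.16 (adjusted p = 0.00417). For Tkfc it was -0.48 in HG and 0.21 in NG, a difference of -0.69 ± 0.19 (adjusted p = 0.0241), which was lost without HG+CD200Fc replicate 2 or 3, HG replicate 1 or 3, NG+CD200Fc replicate 3, or NG replicate 2 or 3.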

How the results depend on the processing

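Over 20 alternatives (19 for the interaction), the 22 member results past the threshold kept their direction in all 437 refits, and 46 refits fell short of it. The 32 member results that had not passed gave 634 refits, of which 12 passed and 18 changed sign. Leaving out each library in turn, the members passing ranged from 1 to 3 in HG+CD200Fc against NG+CD200Fc, from 3 to 5 in HG+CD200Fc against HG and from 3 to 5 in HG+CD200Fc against NG. The shares of all genes passing in those refits were 1.39% to 11.5%, 12.4% to 17.9% and 11.1% to 21.2%, in that order.

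The sign changes were those of values near 0. In HG+CD200Fc against NG+CD200Fc, G6pc3 was at -0.001 with no filter and ranged from -0.004 to 0.027 without a library. In NG+CD200Fc against NG, Arrdc4 was at -0.034 with voom and, without a library, at -0.014 to 0.136. In the same comparison Txnip ranged from -0.101 to 0.009, Mlxip from -0.007 to 0.14, Klf10 from -0.161 to 0.026, G6pc3 from -0.001 to 0.061 and Bhlhe40 from -0.007 to 0.204, and the interaction of Mlx from -0.032 to 0.113. In HG against NG, Arrdc3 was at -0.185 and Max at -0.009 with voom, Myc at 0.012 with upper quartile scaling, and without a library they ranged from -0.128 to 0.154, from -0.063 to 0.048 and from -0.082 to 0.002 in that order. Psmc3ip ranged from -0.016 to 0.06 in HG+CD200Fc against HG.

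Among the related lists, the count of higher genes in HG+CD200Fc against HG was 2 for the Mlx network with no filter, DESeq2, voom, the replicate block and the compared groups alone, and 0 to 2 without a library. It was 2 for the arrestin and thioredoxin list with DESeq2 and voom and 1 to 2 without a library, 1 for glucose uptake with DESeq2, 3 for the ChREBP targets with no filter and 3 to 6 without a library, and 1 to 2 for the clock genes. The count of lower genes was 0 to 3 for the arrestin and thioredoxin list and 3 to 7 for glucose uptake. In HG against NG, leaving out a library gave 0 to 2 higher genes in the arrestin and thioredoxin list, 2 to 5 higher and 0 to 1 lower in glucose uptake, 3 to 5 higher among the clock genes and 1 to 4 lower among the ChREBP targets. The share of all genes passing in either direction moved in the same refits. In HG+CD200Fc against HG it was 17.8% in the main fit and 9.2% with no filter. There it was 19.3% with DESeq2, 19.9% with voom, 20% with the replicate block and 17.2% with the compared groups alone. Without a library it was 12.4% to 17.9% there, and 16.7% to 25.4% in HG against NG. The cause of these moves was not tested.

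In their deviations from the group means, 2 of 18 pairs of libraries with the same replicate number correlated above 0.1 (-0.032 to 0.11). Pairs with different numbers ran from -0.12 to 0.1. The ranges overlap, so these values cannot tell whether the numbers pair the libraries. In HG against NG, 5258 genes passed with a replicate block, where 4720 did without it. With the number as a replicate block, Mlx (-0.20, adjusted p = 0.0432) and Mlxip (0.20, adjusted p = 0.0168) passed in HG against NG and no member's call was lost, and NG+CD200Fc against NG gave 2 genes of 19182, against 21 of 36322 with no filter, 9 of 17688 with the compared groups alone and 8 of 19827 without HG replicate 1. Over all genes, the 1593 passing in HG+CD200Fc against NG+CD200Fc became 277 to 2288 without a library and 2559 with voom, and the 3903 in HG+CD200Fc against NG became 2217 to 4217 without a library. Changes of Mlxipl, with 53 reads in all, and of G6pc, with 27, were not measurable at this depth.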

Other observations

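Relatives of Klf10 and Klf11 and of Bhlhe40 were read from lists of Kruppel-like and circadian clock genes. In HG against NG, 3 of 13 tested Kruppel-like relatives (23.1%) were higher and 0 lower, against 11.7% and 12.9% of all tested genes, with a median log2 difference of 0.15 where all tested genes had 0.02. Klf3, a repressor of the family, had 21 ± 1.23 CPM in HG+CD200Fc, 28.3 ± 1.13 in HG, 19.4 ± 1.64 in NG+CD200Fc and 19.2 ± 1.53 in NG (SD, n = 3 each). It was higher in HG than in NG by 0.56 ± 0.091 (SE, adjusted p = 4.89e-05), and Klf7 was higher by 0.49 ± 0.083 (adjusted p = 8.09e-05). Klf13 was higher by 0.25 ± 0.061 (adjusted p = 0.00338). With CD200Fc in HG, Klf3 (-0.43 ± 0.091, adjusted p = 0.00107) and Klf7 (-0.44 ± 0.083, adjusted p = 3.14e-04) were lower. Higher there were Klf13, by 0.21 ± 0.060 (adjusted p = 0.0121), Klf16 (0.43) and Sp2 (0.70), and the call of Klf13 was lost without HG+CD200Fc replicate 2 (0.18) or 3 (0.21).

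Of 15 tested clock genes, 5 (33.3%) were higher in HG than in NG and 0 lower (median 0.17), a count of 3 without HG replicate 2. The period gene Per3 had 8.48 ± 0.524 CPM in HG+CD200Fc, 12.8 ± 1.16 in HG, 6.91 ± 0.390 in NG+CD200Fc and 7.64 ± 1.06 in NG (SD, n = 3 each). It was higher in HG than in NG by 0.74 ± 0.13 (adjusted p = 1.26e-04), as were the clock output genes Dbp (0.74 ± 0.15, adjusted p = 5.74e-04) and Tef (0.34 ± 0.066, adjusted p = 3.62e-04). Per2 (0.60, adjusted p = 0.0498, range over alternatives 0.0168 to 0.263) and Ciart (1.25) made up the rest, Ciart losing its call without HG replicate 2 (1.06) or NG replicate 1 (0.88). Bhlhe41, the closest relative of Bhlhe40, was at 0.10 ± 0.056 (adjusted p = 0.209) and did not pass. Between HG+CD200Fc and HG, Per3 (-0.59), Dbp (-0.69) and Bhlhe41 (-0.20) were lower in HG+CD200Fc, and Per1 (0.37) and Nfil3 (0.30) were higher, where 8.3% and 9.46% of all tested genes passed in these directions. The call of Bhlhe41 was lost without HG+CD200Fc replicate 3 (-0.17), HG replicate 1 (-0.18) or HG replicate 3 (-0.18), and the count of higher clock genes was 1 without HG+CD200Fc replicate 3 or HG replicate 2. The sources used here give no time of harvest.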
